A study of Mus musculus with 6 samples.

Results

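The nuclear genes for the subunits of the mitochondrial respiratory chain and of ATP synthase were examined in livers of mice with and without Dnajb4, the gene that encodes the co-chaperone HLJ1. The genes were taken by name: the Nduf subunits of complex I (series a, b, c, s and v), Sdha to Sdhd of complex II, Uqcr genes and Cyc1 of complex III, Cycs, the Cox4 to Cox8 subunits of complex IV and the Atp5 subunits of complex V, where a probe set of the array carried that gene name alone. This gave 83 of the 18193 genes measured: 35 of complex I, 4 of complex II, 9 of complex III, Cycs, 17 of complex IV and 17 of complex V. Genes were assigned to complexes by name alone, so Ndufa4 and Ndufa4l2 were counted with complex I whatever complex their proteins join. Their 169 probe sets, groups of short oligonucleotides against a transcript, left 34 genes with 1 probe set and 49 with more.

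The compared livers came from 3 Dnajb4-/- mice (HLJ1-/-, made by gene targeting in embryonic stem cells) and 3 Dnajb4+/+ mice. All 6 were C57BL/6 mice of 6 to 8 weeks that were labelled male, with no treatment stated in the labels, and were measured on 1 Affymetrix Mouse Genome 430 2.0 array each. The sources used here do not name the deleted exon. Values are normalized intensities, averaged per gene on the log2 scale. Differences are log2, Dnajb4-/- minus Dnajb4+/+, and a gene was called when its limma p, adjusted over all genes, was under 0.05.

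The respiratory chain carries electrons from NADH (complex I) and succinate (complex II) through ubiquinone, complex III and cytochrome c to oxygen at complex IV, and the protons pumped on the way drive ATP synthase, complex V. Hepatocytes are rich in mitochondria and depend on this chain for the costs of gluconeogenesis, urea synthesis and secretion. A few subunits of complex IV exist as isoforms for muscle, lung or testis beside those of liver. The core of most complexes also holds subunits encoded in mitochondrial DNA.

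The arrays carried 2 facts that bear on every value below. Averaged over its 3 probe sets, Dnajb4 itself read 117, 125 and 130 in Dnajb4-/- livers, against 132, 143 and 135 in Dnajb4+/+ livers (log2 difference -0.14 ± 0.06 SE, adjusted p = 0.145), with its brightest probe set at 466 in Dnajb4-/- and 589 in Dnajb4+/+ livers (-0.34, adjusted p = 0.010 over all probe sets). Xist, which female cells transcribe from the inactive X chromosome, read 14.3 to 17.2 in Dnajb4-/- livers and 364 to 402 in Dnajb4+/+ livers. Of 15 measured genes known as female-high in mouse liver (Xist among them) 14 were lower in Dnajb4-/- livers, and 9 of 12 male-high genes were higher. Over all genes 9.57% were called lower and 5.09% higher. The 4 Y-linked genes summed to 138 to 145 in Dnajb4-/- and 118 to 131 in Dnajb4+/+ livers. The ratio of 3' to 5' control probe sets was 1.45 ± 0.03 in Dnajb4-/- and 1.17 ± 0.01 in Dnajb4+/+ livers for Gapdh. For Actb it was 3.17 ± 0.06 in Dnajb4-/- livers and 2.65 ± 0.05 in Dnajb4+/+ livers (SD, n = 3 each, exact permutation p = 0.1 for both, the smallest that 3 against 3 allows). Genotype, the sex-linked signal and these ratios cannot be told apart in this design, and their part in the differences below was not tested.

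Subunit genes of the chain differed little between the genotypes. Of the 83 genes 9 were called (10.8%), 5 higher and 4 lower in Dnajb4-/- livers, while 14.7% of all genes were called (5.09% higher and 9.57% lower). The median log2 difference was 0.012 over the subunits and 0.0075 over all genes, and the median absolute difference 0.049 and 0.084. A difference under 0.1 was measured for 61 subunits (73.5%), against 57.0% of all genes. An unadjusted p under 0.05 was found for 24 subunits, and for 29.5% of all genes. No subunit reached 2-fold, as 0.412% of all genes did. For 76 subunits (91.6%) the 95% interval of the difference lay within 1.25-fold either way, against 75.6% of all genes. The 7 exceptions were Ndufb4, Uqcr10 and 5 complex IV genes, Cox6b2, Cox6a2, Cox7a1, Cox7b2 and Cox7c.

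Most of the subunits are among the brightest transcripts on the array. The upper quartile of all genes began at an intensity of 145, and 71 of the 83 lay above it. Of these 71, 7 were called, while 30.8% of all genes above that level were. The median standard error from limma, which draws each gene's variance towards a common value, was 0.038 for subunits and 0.055 for all genes. It is therefore not the plain spread between arrays. In 45 of the 83 (54.2%) the 3 Dnajb4-/- values and the 3 Dnajb4+/+ values did not overlap, against 35.5% of all genes. Across the 83 genes the arrays correlated at 0.9994 to 0.9996 within a genotype and 0.9984 to 0.9988 between genotypes. Across all genes the values were 0.99815 to 0.9985 within and 0.9935 to 0.9948 between genotypes. The wide range of levels from gene to gene keeps all such values high. The plot of differences by complex shows how close to 0 the estimates lie, and the cumulative plot sets them beside all genes.

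**Figure D1:**
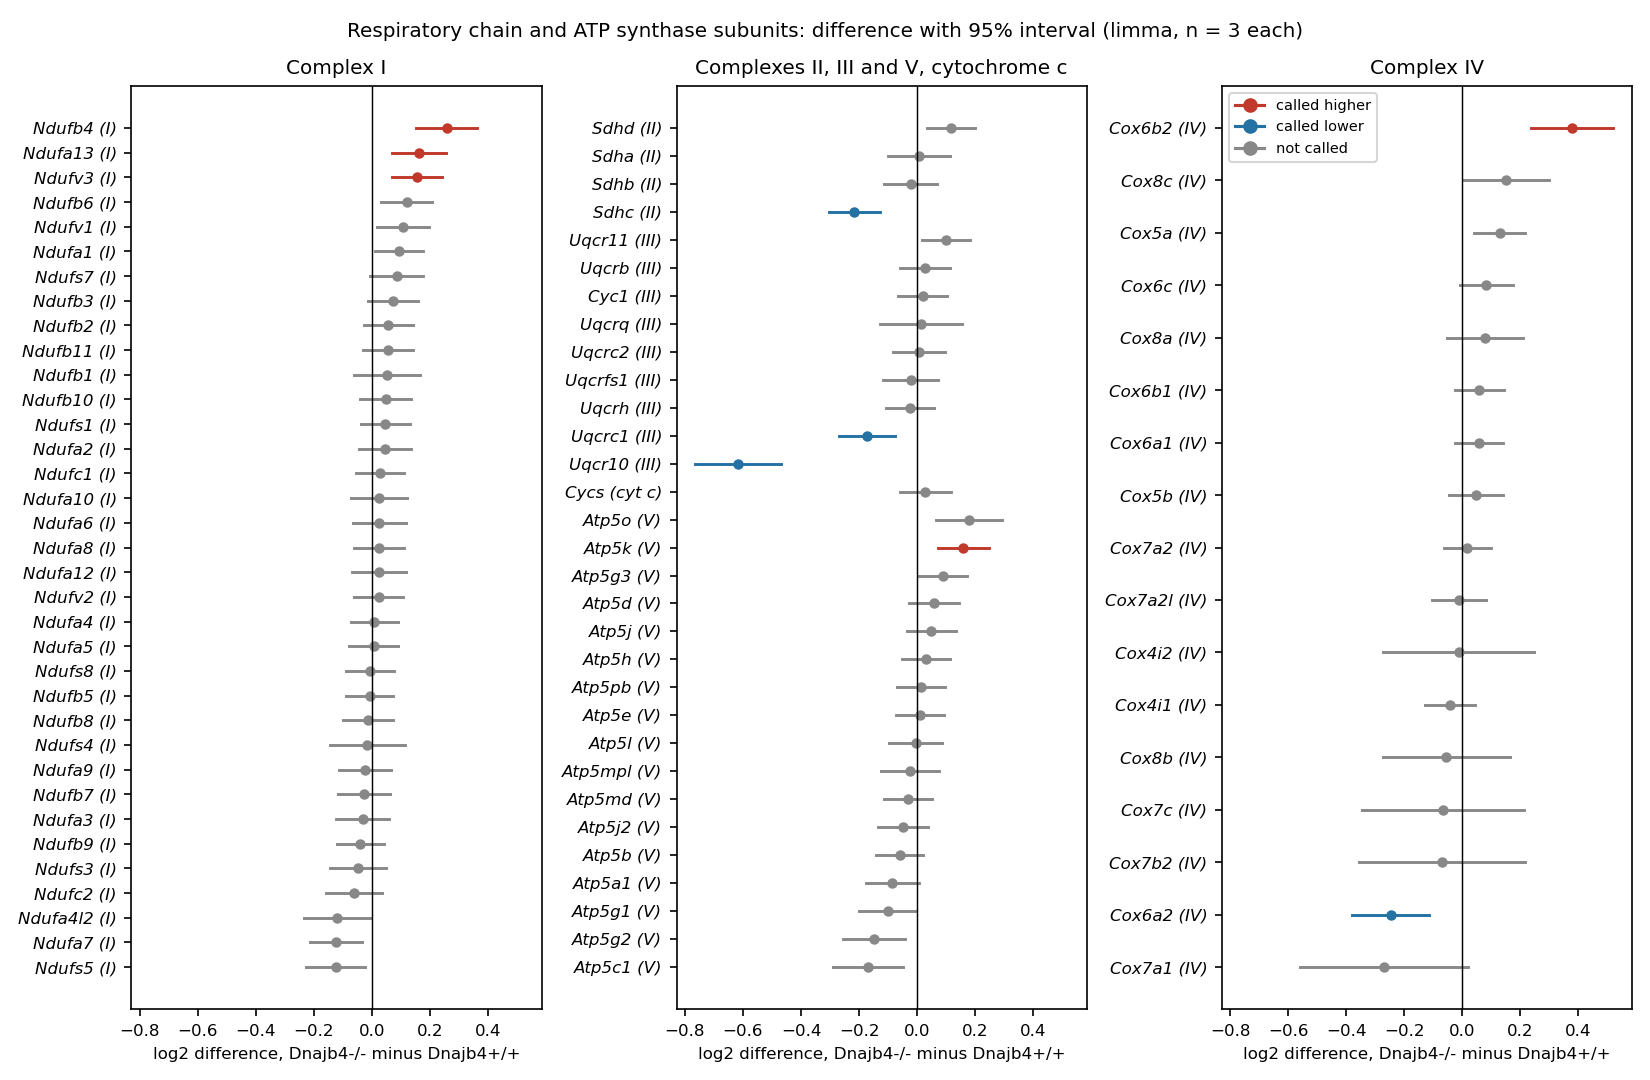
Log2 difference between Dnajb4-/- and Dnajb4+/+ livers for each of the 83 subunit genes (points) with its 95% interval from limma (lines), sorted within complex I, within complexes II, III and V with cytochrome c, and within complex IV, 3 arrays per genotype. Most intervals cross or lie near 0, 5 genes were called higher (red) and 4 lower (blue), and Uqcr10 lies farthest from 0 at -0.62.

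**Figure D2:**
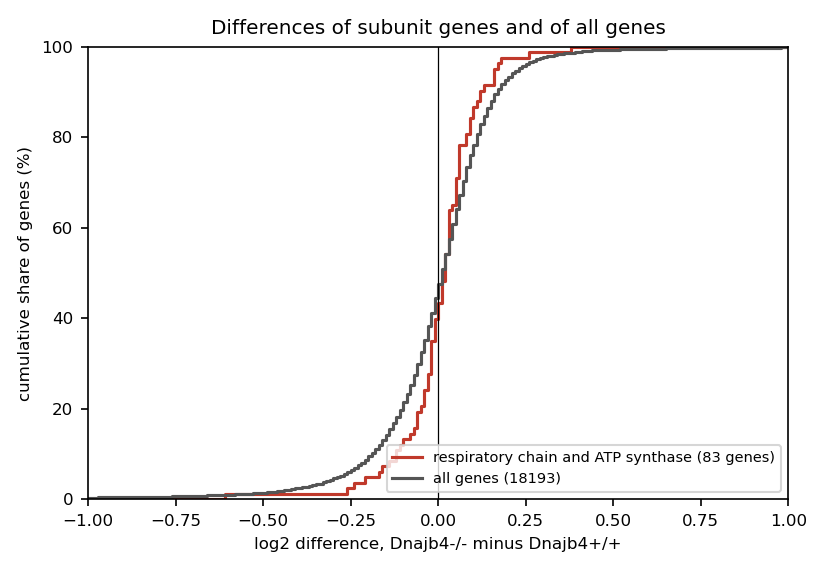
Cumulative share of genes (percent, vertical axis) by log2 difference, Dnajb4-/- minus Dnajb4+/+ (horizontal axis, cut at -1 and 1), for the 83 subunit genes (red) and all 18193 genes (grey). The red curve is steeper around 0, with a median absolute difference of 0.049 against 0.084.

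The count of calls moved with the method and so did its place against the background. With a variance trend and robust fit 20 subunits were higher and 9 lower (34.9%, against 19.3% of all genes), and with arrays centred on bright probe sets 12 were higher and 2 lower (16.9%, against 16.1%). The same centring turned the split over all genes to 52.1% higher among calls, against 34.7% as deposited. With 1 array left out 2 or 3 subunits were higher and 2 or 3 lower. Cox6b2, Ndufb4, Sdhc and Uqcr10 were called with each of the 6 arrays left out in turn. Of these, Uqcr10 changed direction with the probe set used and Ndufb4 rested on a dim probe set, as given below. Cox8c was called only without Dnajb4+/+ replicate 2 (0.21, adjusted p = 0.0400).

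Promoters of these genes are known for sites of NRF1 and of ETS factors such as GABPA, which drive nuclear genes of mitochondrial proteins. RefSeq sequence (GRCm38.p6) from 250 bases before to 50 after the start was at hand for 67 of the 83. Both strands were searched for the NRF1 consensus of 10 letters, CCGGAAG (ETS), AAGATGGCG (YY1), TCAAGGTCA (estrogen-related receptor) and GGGGCGGGG (SP1), and a match is a run of letters only. The NRF1 letters are those in capitals for Atp5k below, with any base at the sixth place. The NRF1 letters stood in 14 of the 67 windows (20.9%), against 6.60% of 17492 protein-coding genes and 4.78% of all 27025 windows. The ETS letters stood in 16 (23.9%), against 11.9% of protein-coding genes, the YY1 letters in 5 (7.46%, against 1.94%), the receptor letters in 2 (2.99%, against 0.332%) and the SP1 letters in 11 (16.4%, against 15.5%). The windows of 4 genes are shown as the 250 bases before the start, 5' to 3' along the gene, with matches in capitals: those of 2 called genes (Atp5k and Uqcr10), and those of a liver and a muscle isoform of complex IV (Cox6a1 and Cox7a1).
Atp5k, chr5:108434400-108434649, minus strand: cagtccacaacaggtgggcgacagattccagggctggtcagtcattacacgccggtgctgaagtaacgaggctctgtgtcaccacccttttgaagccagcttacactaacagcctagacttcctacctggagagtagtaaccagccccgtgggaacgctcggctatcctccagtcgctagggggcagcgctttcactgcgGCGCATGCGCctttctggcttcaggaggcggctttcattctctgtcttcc
Uqcr10, chr11:4704345-4704594, minus strand: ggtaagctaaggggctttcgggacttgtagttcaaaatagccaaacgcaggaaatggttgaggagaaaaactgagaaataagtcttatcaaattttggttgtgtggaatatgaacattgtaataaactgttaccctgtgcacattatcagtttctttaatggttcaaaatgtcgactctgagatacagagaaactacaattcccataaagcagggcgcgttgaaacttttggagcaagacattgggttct
Cox6a1, chr5:115348959-115349208, minus strand: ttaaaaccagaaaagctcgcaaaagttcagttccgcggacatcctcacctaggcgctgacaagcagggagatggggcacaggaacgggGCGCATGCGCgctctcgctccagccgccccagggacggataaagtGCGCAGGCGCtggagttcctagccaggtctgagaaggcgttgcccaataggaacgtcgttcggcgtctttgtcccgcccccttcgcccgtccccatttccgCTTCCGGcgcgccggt
Cox7a1, chr7:30183921-30184170, plus strand: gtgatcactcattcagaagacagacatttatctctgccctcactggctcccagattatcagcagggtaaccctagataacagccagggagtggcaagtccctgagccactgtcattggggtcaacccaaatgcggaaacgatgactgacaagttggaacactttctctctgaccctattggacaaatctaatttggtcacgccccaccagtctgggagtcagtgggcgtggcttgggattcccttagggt
Cox6a1, the isoform used in liver, held 2 NRF1 matches and 1 ETS match, Atp5k held 1 NRF1 match, and Uqcr10 and Cox7a1 held none of the searched runs in the bases shown. In their whole windows, Uqcrc1, called lower, held 2 NRF1 matches, Ndufb4, called higher, held 3, and Ndufv3, called higher, held no match.

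In complex I, the NADH dehydrogenase, 3 of 35 genes rose in Dnajb4-/- livers and none fell (background 5.09% and 9.57%), with a median difference of 0.025. Ndufa13, an accessory subunit that is also known to bind STAT3, read 6047, 6369 and 6069 in Dnajb4-/- livers and 5482, 5459 and 5557 in Dnajb4+/+ livers. Every Dnajb4-/- value lay above every Dnajb4+/+ value, a difference of 0.16 ± 0.04 (SE, adjusted p = 0.0345). Ndufa13 rested on 1 probe set, which was dropped when shared probe sets were left out. Tested over all probe sets it was not called (adjusted p = 0.0720). The dim probe sets named for both Yjefn3 and Ndufa13 differed by 0.058 and 0.086 (adjusted p = 0.617 and 0.736). Ndufv3, an accessory subunit of the arm that oxidizes NADH, read 4567, 4599 and 4585 in Dnajb4-/- livers and 4113, 4028 and 4208 in Dnajb4+/+ livers (0.16 ± 0.04, adjusted p = 0.0335). The 2 genotypes did not overlap for either gene. Both calls were lost with any array left out, at adjusted p = 0.0642 to 0.104 for Ndufa13 and 0.0603 to 0.101 for Ndufv3.

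Ndufb4, an accessory subunit of the membrane arm, showed the largest difference of complex I, and it came from a dim probe set. This read 13.1, 12.4 and 12.5 in Dnajb4-/- livers and 10.4, 11.01 and 10.4 in Dnajb4+/+ livers (0.26 ± 0.04, adjusted p = 0.0102), at the 15.3 percentile of signal over all genes. The bright probe sets that carry its name share it with Ndufb4b and Ndufb4c and were therefore not counted. They read 3868 ± 38.9 and 3903 ± 65.6 in Dnajb4-/- livers, against 3861 ± 31.96 and 3969 ± 45.3 in Dnajb4+/+ livers (SD, n = 3 each). Their differences were 0.0027 and -0.024 (adjusted p = 0.978 and 0.779 over all probe sets), and their groups overlapped.

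The subunits that carry the redox centres of complex I differed by at most 0.11 in size when averaged over their probe sets. Ndufv1, which holds the flavin, averaged 2761 ± 54.9 in Dnajb4-/- livers and 2564 ± 38.0 in Dnajb4+/+ livers (SD, n = 3 each), a difference of 0.11 (adjusted p = 0.108). The iron-sulfur subunits Ndufs1, Ndufs7, Ndufs8 and Ndufv2 differed by 0.047, 0.085, -0.0055 and 0.023, and Ndufs3, a core subunit next to them, by -0.046. None of these genes passed the test. The brightest probe set of Ndufs7 was called on its own (0.19, adjusted p = 0.0391 over all probe sets). That of Ndufv1 lay at 0.19 (adjusted p = 0.0538). Among other settings, Ndufv1 was called higher with bright centring, the offset and the trend fit. Ndufs7 was called higher with the brightest probe set and the trend fit. Neither gene was called with any array left out. Across the 32 uncalled genes of complex I the differences ran from -0.13 for Ndufs5 to 0.12 for Ndufb6.

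Complex II, succinate dehydrogenase, is the only respiratory complex encoded wholly in the nucleus, and its 2 membrane anchors gave values of opposite sign. Sdhc fell, with 1080, 1119 and 1097 in Dnajb4-/- livers and 1273, 1259 and 1298 in Dnajb4+/+ livers (-0.22 ± 0.04, adjusted p = 0.0102). Each of its probe sets was also called on its own, at -0.22 and -0.21 (adjusted p = 0.0302 and 0.0434 over all probe sets, where 10.4% were called). Sdhd read 1840.5, 1826 and 1825 in Dnajb4-/- livers and 1700, 1704 and 1662 in Dnajb4+/+ livers (0.12 ± 0.04, adjusted p = 0.0729). Its groups did not overlap, yet it did not pass the test. The difference came mainly from its dimmer probe set (0.21), while the brighter one lay at 0.027 (adjusted p = 0.757 over all probe sets).

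The catalytic subunits of complex II differed by less than the spread between arrays. Sdha, the flavoprotein, read 205, 199 and 196 in Dnajb4-/- livers and 195, 209 and 194 in Dnajb4+/+ livers (0.0053, 95% interval -0.10 to 0.11). Its bright probe sets lay at 0.081 and -0.098, neither called, and its dim pair near 14 and 7 pulls the average of this gene down. Sdhb, the iron-sulfur subunit, read 4793, 5018 and 4942 in Dnajb4-/- livers and 4939, 4945 and 5093 in Dnajb4+/+ livers (-0.022, 95% interval -0.11 to 0.070).

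Complex III, the ubiquinol-cytochrome c reductase, had 2 of its 9 genes called lower (22.2%, against 9.57% lower over all genes), and for 1 of them, Uqcr10, the direction depended on the probe set. Uqcr10, a small accessory subunit, averaged over its probe sets 648, 693 and 638 in Dnajb4-/- livers and 977, 966 and 1096 in Dnajb4+/+ livers, a difference of -0.62 ± 0.06 (SE, adjusted p = 0.00115). Its 3 probe sets disagreed. The brightest was higher in Dnajb4-/- livers, at 3659, 3849 and 3762 against 3178, 3178 and 3243 in Dnajb4+/+ livers (0.23, adjusted p = 0.0236 over all probe sets). The dimmest was lower, at 247, 248 and 244 in Dnajb4-/- livers against 577, 558 and 611 in Dnajb4+/+ livers (-1.24, adjusted p = 3.48e-05). The third read 301, 349 and 283 in Dnajb4-/- livers and 508, 507 and 665 in Dnajb4+/+ livers (-0.84, adjusted p = 0.00859).

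Uqcr10 was the only subunit gene with probe sets called in both directions. By the array's annotation its 2 dim probe sets were designed on the same expressed sequence tag and the bright one on a full-length cDNA, so the dim pair is not a second independent measurement. The direction of the gene therefore rests on the way probe sets were combined. It was 0.23 (adjusted p = 0.0099) with the brightest probe set alone. It was -0.00908 (adjusted p = 0.906) when intensities were averaged before taking the log, where the bright one dominates. The plot of the Uqcr10 probe sets shows all 18 values.

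**Figure D3:**
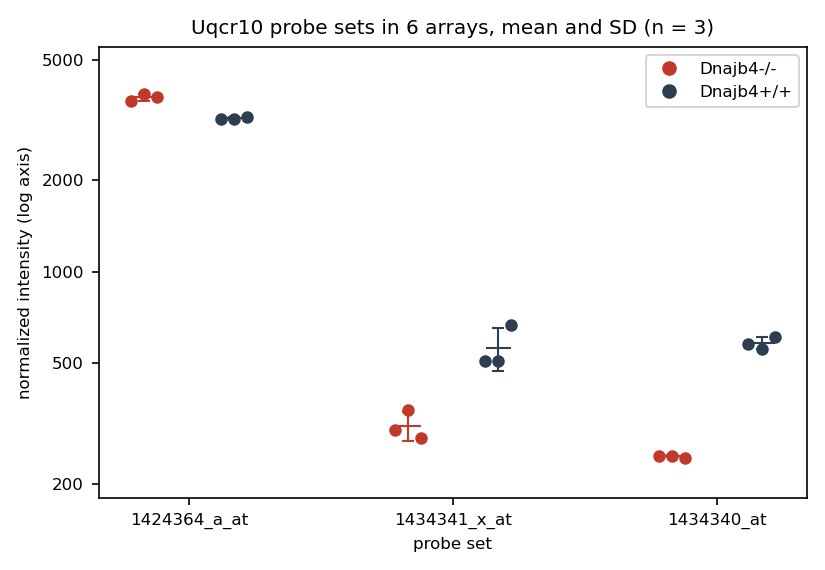
Normalized intensity (log axis) of the 3 Uqcr10 probe sets in 3 Dnajb4-/- livers (red) and 3 Dnajb4+/+ livers (dark), with mean and SD. The brightest probe set lies higher in Dnajb4-/- livers, at 3757 against 3200 in Dnajb4+/+ livers, and the other 2 lie lower in all 3 Dnajb4-/- arrays.

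Uqcrc1, a core protein of complex III, fell, with 3140, 3114 and 3238 in Dnajb4-/- livers and 3460, 3562 and 3671 in Dnajb4+/+ livers (-0.17 ± 0.04, adjusted p = 0.0344). That call was lost with any array left out (adjusted p = 0.0618 to 0.103) and with arrays centred on bright probe sets (-0.13, adjusted p = 0.0691). The other 7 genes were not called. Among them Cyc1, which carries the haem of cytochrome c1, differed by 0.019, the Rieske iron-sulfur protein Uqcrfs1 by -0.021 and the core protein Uqcrc2 by 0.0083. Cycs, the mobile cytochrome c, read 1350, 1338 and 1336 in Dnajb4-/- livers and 1340, 1283 and 1322 in Dnajb4+/+ livers (0.029, adjusted p = 0.658), and its groups overlapped.

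Complex IV, cytochrome c oxidase, had 1 gene of 17 higher and 1 lower (11.8% called, against 14.7% of all genes), and both are isoforms known from other tissues. Cox6b2, the testis form of a subunit on the intermembrane side, read 213, 196 and 204 in Dnajb4-/- livers and 156, 148 and 168 in Dnajb4+/+ livers (0.38 ± 0.06, adjusted p = 0.00728). The lowest Dnajb4-/- value was above the highest Dnajb4+/+ value, and this was the largest rise among the 83 genes. Cox6b1, the form used in most tissues, averaged 7335 ± 79.8 in Dnajb4-/- and 7045 ± 107 in Dnajb4+/+ livers (0.058, adjusted p = 0.335). The other testis forms measured, Cox8c and Cox7b2, differed by 0.15 (adjusted p = 0.166) and -0.070 (adjusted p = 0.745).

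Cox6a2, the heart and skeletal muscle form of its subunit, was dim and lower in Dnajb4-/- livers. It read 29.2, 26.1 and 26.5 in Dnajb4-/- livers and 31.0, 33.0 and 33.0 in Dnajb4+/+ livers (-0.25 ± 0.06, adjusted p = 0.0294). The genotypes did not overlap, but the call held only without Dnajb4-/- replicate 1 (-0.30, adjusted p = 0.0192) and was lost with any other array left out (adjusted p = 0.0511 to 0.0925). Cox6a1, the liver form, read 10772, 10884 and 11088 in Dnajb4-/- livers and 10462, 10533 and 10455 in Dnajb4+/+ livers (0.058, adjusted p = 0.329). Within an array, Cox6a2 minus Cox6a1 differed by -0.31 between Dnajb4-/- and Dnajb4+/+ livers (exact permutation p = 0.1, n = 3 each).

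The remaining muscle forms gave values in the same direction that did not pass a test. Cox7a1 read 37.0, 50.7 and 39.6 in Dnajb4-/- livers and 53.4, 53.1 and 45.9 in Dnajb4+/+ livers (-0.27 ± 0.12, adjusted p = 0.197), where Dnajb4-/- replicate 2 lay among the Dnajb4+/+ values. Without that array the difference was -0.40 (adjusted p = 0.0354). Cox7a2, its liver counterpart, averaged 7062 ± 24.9 in Dnajb4-/- and 6979 ± 33.1 in Dnajb4+/+ livers (0.017). Cox8b read 35.7, 32.4 and 32.5 in Dnajb4-/- livers and 39.0, 30.4 and 35.5 in Dnajb4+/+ livers (-0.055, adjusted p = 0.741), and Cox8a averaged 685 ± 42.3 in Dnajb4-/- and 648 ± 20.9 in Dnajb4+/+ livers. The within-array differences were -0.29 for Cox7a1 minus Cox7a2 and -0.13 for Cox8b minus Cox8a (exact permutation p = 0.2 and 0.4, n = 3 each).

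Markers of skeletal muscle were lower in the same livers as Cox6a2. Of 24 measured markers 14 were lower in Dnajb4-/- livers and none was higher, against 9.57% lower and 5.09% higher over all genes. The summed intensity of the 24 was 746 to 760 in Dnajb4-/- livers and 1214 to 1278 in Dnajb4+/+ livers. The fast troponin Tnnc2 and the muscle actin Acta1 fell the most, at 23.9 ± 3.71 and 51.0 ± 4.90 in Dnajb4-/- livers and 113 ± 15.9 and 219 ± 13.0 in Dnajb4+/+ livers (SD, n = 3 each). None of 8 cardiac markers was called, and their sum was 147 to 156 in Dnajb4-/- and 141 to 147 in Dnajb4+/+ livers. In bulk liver, fewer muscle cells and less RNA per muscle cell cannot be told apart, and the part of these markers in the isoform values was not tested.

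**Figure D4:**
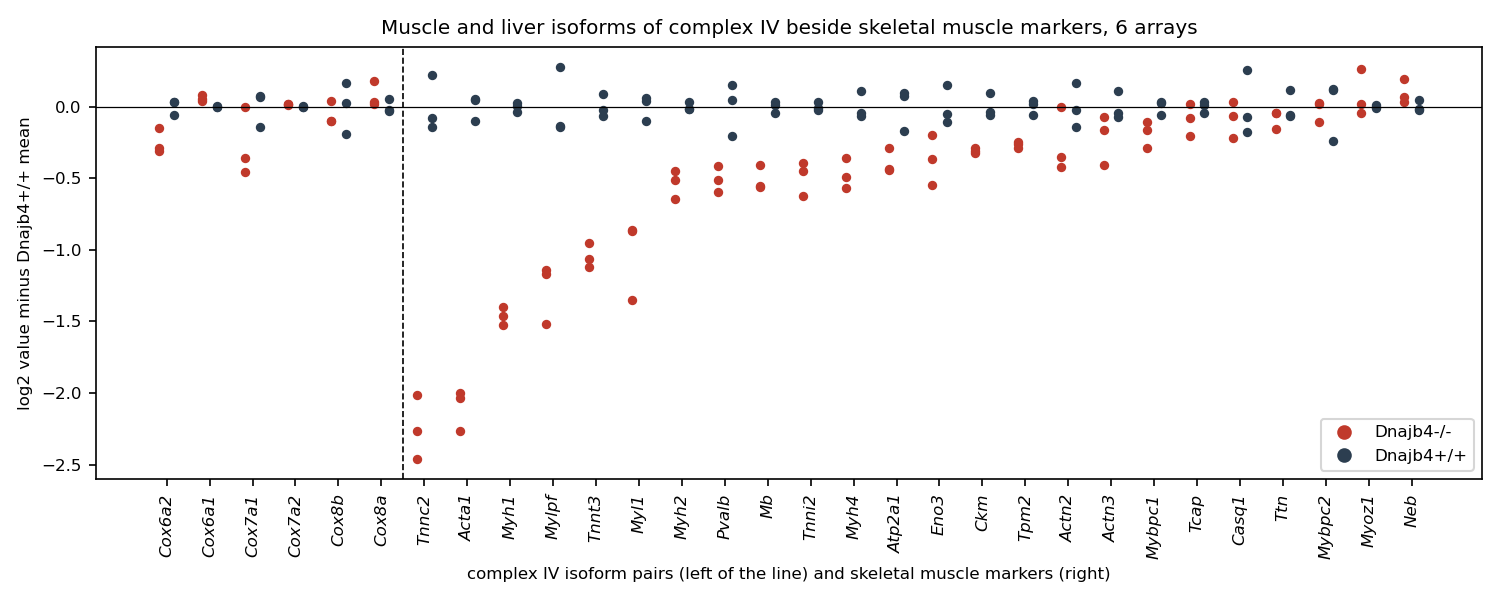
Log2 value minus the Dnajb4+/+ mean (vertical axis) in 3 Dnajb4-/- (red) and 3 Dnajb4+/+ (dark) livers for the muscle and liver isoforms of complex IV, in pairs left of the dashed line, and for 24 skeletal muscle markers right of it. Cox6a2 lies below 0 in all 3 Dnajb4-/- arrays while Cox6a1 lies just above it, and 14 of the 24 markers were called lower, with Tnnc2 and Acta1 lowest.

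The liver and lung forms of subunit IV of the oxidase were close between genotypes. Cox4i1 read 7678, 7811 and 7923 in Dnajb4-/- livers and 8039, 7917 and 8141 in Dnajb4+/+ livers (-0.042, adjusted p = 0.502). Its counterpart Cox4i2, known from lung and as induced by low oxygen, read 33.4, 32.3 and 42.6 in Dnajb4-/- livers and 38.2, 36.8 and 33.6 in Dnajb4+/+ livers (-0.013, 95% interval -0.27 to 0.25). The groups overlapped for both. Cox5a averaged 7678 ± 167 in Dnajb4-/- and 7022 ± 51.2 in Dnajb4+/+ livers, just outside the threshold (0.13, adjusted p = 0.0620). Its groups did not overlap, and Cox5a was called higher with quantile normalization, bright centring, the trend fit and the brightest probe set, among others. It was not called without shared probe sets, with a replicate block or with any array left out (adjusted p = 0.103 to 0.166). Cox7c had dim probe sets only, at 70.0 and 15.1 in Dnajb4-/- and 73.4 and 16.1 in Dnajb4+/+ livers, which left a wide interval (-0.35 to 0.21).

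In complex V, ATP synthase, 1 of 17 genes was called (5.88%, against 14.7% of all genes). Atp5k, subunit e of the membrane part, which serves in the pairing of synthases, read 5173, 5313 and 5385 in Dnajb4-/- livers and 4747, 4781 and 4683 in Dnajb4+/+ livers (0.16 ± 0.04, adjusted p = 0.0315). Its 3 probe sets lay at 0.16, 0.17 and 0.15, each with genotypes that did not overlap. None of them passed alone (adjusted p = 0.0775, 0.0590 and 0.102 over all probe sets), and the gene's call was lost with any array left out (adjusted p = 0.0526 to 0.0979). Atp5o, which joins the stalk to the catalytic head, had a larger difference and lay just outside the threshold, at 2400 ± 93.1 in Dnajb4-/- and 2119 ± 81.2 in Dnajb4+/+ livers (0.18, adjusted p = 0.0510).

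Other parts of the synthase differed with either sign and without calls. Atp5a1 and Atp5b, subunits of the catalytic head, averaged 1828 ± 25.4 and 8727 ± 31.2 in Dnajb4-/- livers and 1940 ± 49.8 and 9098 ± 59.3 in Dnajb4+/+ livers (-0.086 and -0.060, adjusted p = 0.193 and 0.300). The 3 probe sets of Atp5a1 ran from -0.15, its brightest, to 0.0088. The central stalk subunit Atp5c1 differed by -0.17 (adjusted p = 0.0733). Its brighter probe set lay at -0.032 (adjusted p = 0.700 over all probe sets) and its dimmer one at -0.30. Of the genes for the same ring subunit c, Atp5g1 differed by -0.10, Atp5g2 by -0.15 and Atp5g3 by 0.089 (adjusted p = 0.155, 0.0733 and 0.140). For Atp5g1 the brighter probe set lay at -0.012 and the dimmer one at -0.19. In 13 of the 17 genes of complex V (76.5%, against 35.5% of all genes) the genotypes did not overlap, 6 with the Dnajb4-/- livers above and 7 below.

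The plot of the called subunits gathers the 9 genes. Apart from Uqcr10 and Cox6b2, each differed by less than 0.3 on the log2 scale.

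**Figure D5:**
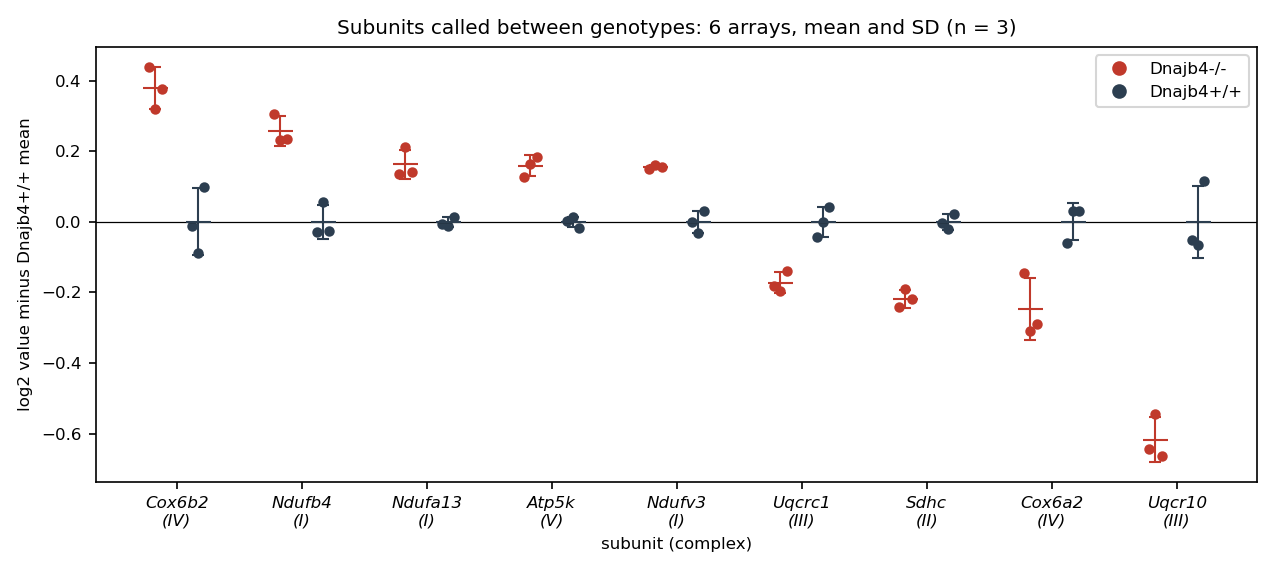
Log2 value minus the Dnajb4+/+ mean (vertical axis) of the 9 called subunit genes in 3 Dnajb4-/- livers (red) and 3 Dnajb4+/+ livers (dark), with mean and SD. Cox6b2, Ndufb4, Ndufa13, Atp5k and Ndufv3 lie higher in all Dnajb4-/- arrays, and Uqcrc1, Sdhc, Cox6a2 and Uqcr10 lower.

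At the level of single probe sets, 6 of the 169 were higher and 5 lower in Dnajb4-/- livers, against 3.91% and 6.51% of 45037 probe sets. Among the called genes, Cox6b2, Ndufb4, Sdhc and Uqcr10 had probe sets called, and Ndufa13, Ndufv3, Uqcrc1, Cox6a2 and Atp5k had none. The rest were 1 each of Atp5o (0.29), Ndufs7 (0.19) and Sdhd (0.21), all higher, and of Ndufa7 (-0.19), named here after their values were seen. For Atp5o and Sdhd the called probe set was the dimmer one, and the brighter one differed by 0.064 and 0.027. For Ndufs7 the called probe set was the brighter one, and the dimmer one differed by -0.017.

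Factors that build the complexes were measured beside the subunits. Of 18 assembly factors of complex I, 1 rose and 4 fell (27.8% called, against 14.7% of all genes). Dmac1 read 1197 ± 13.5 in Dnajb4-/- and 1004 ± 5.07 in Dnajb4+/+ livers (0.25, adjusted p = 0.00422). Tmem126b, a factor for the membrane arm, read 33.5 ± 3.31 in Dnajb4-/- and 46.6 ± 4.25 in Dnajb4+/+ livers (-0.48, adjusted p = 0.0170), and Nubpl, which delivers iron-sulfur clusters, 509 ± 29.3 in Dnajb4-/- and 605 ± 20.1 in Dnajb4+/+ livers (-0.25, adjusted p = 0.0247). Lyrm2 and Ndufaf4 fell by 0.20 and 0.19 on the log2 scale, Lyrm2 not with its brightest probe set alone (0.012, adjusted p = 0.878).

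The factors of the other complexes had no rise among them, and 9.09% of those for complexes II and III and 9.52% of those for complex IV were called, against 14.7% of all genes. Of 11 factors for complexes II and III, Sdhaf1, needed for the iron-sulfur subunit of complex II, was called, at 237 ± 12.0 in Dnajb4-/- and 306 ± 23.1 in Dnajb4+/+ livers (-0.37, adjusted p = 0.0130). Of 21 genes listed here as factors for complex IV, 2 fell, Coa6 and Fastkd1. Coa6, which serves in copper delivery, read 912, 888 and 932 in Dnajb4-/- livers and 1145, 1142 and 1162 in Dnajb4+/+ livers (-0.34, adjusted p = 0.00172). Fastkd1 differed by -0.24 (adjusted p = 0.0150), and its role in complex IV rests on that list alone. Of 4 genes for complex V, the assembly factor Tmem70 fell (-0.17, adjusted p = 0.0258), a share of 25%. With 1 array left out in turn, the calls of Ndufaf4 (adjusted p = 0.0473 to 0.131), Nubpl (0.0353 to 0.0809), Lyrm2 (0.0418 to 0.0554), Tmem126b (0.0165 to 0.0618), Sdhaf1 (0.0098 to 0.0505) and Fastkd1 (0.0307 to 0.0591, lost without Dnajb4+/+ replicate 1) were lost with at least 1 array, and that of Tmem70 with any (0.0600 to 0.0856). The median over each of these lists lay between -0.055 and -0.018, against 0.0075 over all genes.

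Electron carriers and feeders around the chain held the larger changes. Of 20 genes for ubiquinone synthesis and electron entry, 1 rose and 4 fell, a share of 25% against the background of 14.7%. Coq10b, a ubiquinone-binding protein, read 287, 297 and 300 in Dnajb4-/- livers and 739, 725 and 721 in Dnajb4+/+ livers (-1.31, adjusted p = 4.05e-06). Coq8a, an ATPase of ubiquinone synthesis, read 806 ± 39.1 in Dnajb4-/- and 554 ± 16.9 in Dnajb4+/+ livers (0.54, adjusted p = 0.000769). Prodh, Coq7 and Coq4 fell by 0.34, 0.21 and 0.20 on the log2 scale, and the call of Coq4 held only without Dnajb4-/- replicate 3 among the arrays left out (adjusted p = 0.0370 to 0.0772).

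Among 10 carriers of the inner and outer membrane 2 fell and none rose (20% called, against 14.7% of all genes). Slc25a4, the muscle form of the ADP/ATP carrier, read 70.8, 75.2 and 70.5 in Dnajb4-/- livers and 98.1, 91.8 and 100 in Dnajb4+/+ livers (-0.42, adjusted p = 0.00218). Slc25a5, the form of liver and other tissues, averaged 3262 in Dnajb4-/- and 3121 in Dnajb4+/+ livers (0.064, adjusted p = 0.326). Vdac2, a channel of the outer membrane, fell as well (-0.26, adjusted p = 0.00734). Of 13 citric acid cycle genes Idh2 and Suclg2 fell (-0.26 and -0.20), a share of 15.4%, near that of all genes. The call of Suclg2 was lost with 4 of the 6 arrays left out in turn (adjusted p = 0.0370 to 0.0775).

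The coactivator Ppargc1a, a regulator of mitochondrial genes, was lower while the subunit genes as a group lay near 0. It read 70.2, 76.0 and 75.6 in Dnajb4-/- livers and 124, 117 and 131 in Dnajb4+/+ livers (-0.74, adjusted p = 0.000357). Its relative Ppargc1b averaged 378 ± 12.2 in Dnajb4-/- and 425 ± 9.02 in Dnajb4+/+ livers (-0.17, adjusted p = 0.0384), a call that was lost with any array left out (adjusted p = 0.0734 to 0.113). Of the 17 regulators 11.8% were called, against 14.7% of all genes. The other 15 were not called, among them Nrf1 (0.044), Gabpa (0.058), Esrra (-0.087) and Tfam (-0.11), whose proteins bind promoters or mitochondrial DNA.

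Of the subunits encoded in mitochondrial DNA, ND5 of complex I was the 1 that matched a probe set with a single gene name. It read 12525, 12157 and 12109 in Dnajb4-/- livers and 13569, 13254 and 13498 in Dnajb4+/+ livers. The genotypes did not overlap, and the difference of -0.13 lay just outside the threshold (adjusted p = 0.0561).

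The label of the tissue was borne out by hepatocyte transcripts, as Alb averaged 28776 in Dnajb4-/- and 29388 in Dnajb4+/+ livers. Of 10 hepatocyte markers Apob and Hnf4a rose (0.42 and 0.17) and Tat fell (-0.42), 30% called against 14.7% of all genes. Of 11 adipocyte markers 1 rose and 3 fell (36.4% called), with Adipoq at 14.4 ± 1.58 in Dnajb4-/- and 19.8 ± 1.78 in Dnajb4+/+ livers. Elovl3, the one that rose, is also a male-high gene of liver. The calls of Hnf4a and Adipoq were lost with 5 and 4 of the 6 arrays left out in turn (adjusted p = 0.0478 to 0.0976 and 0.0210 to 0.0750).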

How the data were processed

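Liver RNA of 3 Dnajb4-/- and 3 Dnajb4+/+ mice was hybridised to 1 array per mouse, and the labels gave group and replicate number. The authors used GCRMA in GeneSpring (background by GC content, normalization between arrays, 1 value per probe set) with global centring. They deposited linear intensities, with a lowest value of 3.90. Background-uncorrected signals and detection calls were not used here.

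Of 45101 probe sets 64 controls were left out, and 34945 with a single gene symbol gave 18193 genes as the mean of their log2 values. Each genotype mean is the mean of 3 gene values given back on the intensity scale. The comparison was fitted with limma 3.58.1 in R 4.3.3 (lmFit, eBayes, no filter, two-sided), with Benjamini-Hochberg adjustment over all genes or, for single probe sets, over 45037. Isoform pairs and control ratios had a two-sided exact permutation test over arrays. The members, lists and tests were chosen with earlier results of these data known, and no set test was run.

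Per-array values are given for up to 4 called genes per complex and direction, isoform pairs of complex IV, Cycs, the Sdh genes, genes with probe sets called in both directions, and up to 4 called genes of each list. Probe sets with several symbols (9 hold a subunit name) were left out of gene values. Names and promoters come from RefSeq GRCm38.p6, in which all 83 symbols were found. Data of 18193 genes with 3 arrays against 3 were simulated, with 50 genes changed at each size. Of genes with a log2 change of 0.25, 14.0% were recovered, and of those with 0.5, 66.0%. In the measured data 2667 genes were called, and the median standard error was 0.038 for subunits against 0.055 for all genes. The simulated rates therefore cannot be read as the recovery of subunits. A missed call alone is not evidence of no change. What bounds a difference is its interval, which lay within 1.25-fold for 76 of the 83 subunits. The precision is limited by the number of arrays. Alternatives covered the normalization, centring, dim genes, the gene-level value, shared probe sets, an offset of 16, the variance model, the t-test named in the methods, a replicate block and each left-out array. Plots were made in python 3.11.15 with matplotlib 3.10.9.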

Additional observations from a re-analysis of the deposited data

How the results depend on the processing

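The number of subunits called higher (5 of 83) was 8 with quantile normalization, 12 with centring on bright probe sets, 12 with dim genes left out, 10 with the brightest probe set per gene, 13 with an offset of 16, 20 with a variance trend and robust fit, and 11 with the methods' t-test after Benjamini-Hochberg (24 at an unadjusted p of 0.05). The number called lower (4) was 2, 7, 7, 9 and 14 with bright centring, dim genes left out, the offset, the trend fit and the unadjusted t-test. Leaving out each array gave 2 to 3 higher and 2 to 3 lower, against 8.53% to 11% of all genes, and leaving out shared probe sets gave 3 higher. The share of subunits called was above that of all genes with the trend fit, the offset (24.1% against 19.8%), the t-test (19.3% against 11.2% adjusted, 45.8% against 27% unadjusted) and, narrowly, bright centring (16.9% against 16.1%), and below it in the other settings, as with quantile normalization (14.5% against 15.7%).

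Member probe sets called (11) were 18 with quantile normalization, 18 with bright centring, 32 with the offset, 69 with the trend fit, 29 and 83 with the adjusted and unadjusted t-test, 7 without shared probe sets and 2 to 4 with an array left out. The median subunit difference (0.012) was 0.025 with quantile normalization, 0.049 with bright centring, which moved the median of all genes to 0.044, 0.025 with the brightest probe set, and 0.0098 to 0.019 with an array left out.

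Deviations of same-numbered arrays from their genotype means correlated at -0.021, -0.141 and 0.0088, and those of differently numbered arrays at -0.102 to 0.121. With 3 arrays per genotype such values cannot exclude a pairing of the mice, and the labels state none. With a replicate block 2 subunits were higher and 1 lower (Cox6b2, Ndufb4 and Uqcr10), and 3 probe sets were called.

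Among the genes given per array, signs changed for Uqcr10 (0.23) and Cox8a (-0.044) with the brightest probe set, where the related genes Lyrm2 (0.012) and Myh1 (0.21) also turned, for Cox8a on the linear scale (-0.043), for Sdhb (0.015) and Cox4i2 (0.024) with bright centring, for Sdha without shared probe sets (-0.020) and with the offset (-0.0040), and with an array left out for Sdha (-0.013 to 0.039), Cox4i2 (-0.138 to 0.061) and Cox8b (-0.151 to 0.027). All but Uqcr10, Lyrm2 and Myh1 were uncalled before and after. Over all 83 subunits, 13 changed sign with some array left out, none of them called, the farthest from 0 at 0.070 in size as reported. The causes were not tested. The 3 isoform differences kept their direction in all 36 alternatives run. Another background correction was not run, as it needs scanner values.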
